A study of Homo sapiens with 16 samples.

Results

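The 4 libraries of Sorafenib-resistant Huh7 cells were compared directly with the 4 libraries of Sorafenib-resistant Hep3B cells. These 8 of the 16 libraries of the series were chosen by their titles, and the 4 parental libraries of the same lines served as the reference for what separated the lines before resistance. Huh7 and Hep3B are established human hepatocellular carcinoma (HCC) lines, and the study made resistant derivatives of each to learn what sustains resistance to Sorafenib, an oral inhibitor of RAF and receptor tyrosine kinases. IR cells were selected by stepwise increasing concentrations of the drug, and CR cells by a concentration that was high throughout. The groups were Huh7-CR and Huh7-IR of the first line and Hep3B-CR with Hep3B-IR of the second, each with 2 libraries and each listed as treated with 7 μM Sorafenib, and parental and DMSO cells of both lines, 2 libraries each and all listed as untreated. The effect of drug in the medium and that of selection for resistance cannot be told apart in the 8 resistant libraries, and each resistant derivative is a single cell population. The labels do not say whether the 2 libraries of a group came from separate cultures, so the p-values measure the spread between libraries, which may be technical. The study's methods describe biological triplicates, and 2 libraries a group were analysed here.

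HCC lines differ in the mutations they carry, in how much of the hepatocyte program they still run and in how far they have moved toward a mesenchymal state. The hepatocyte program is driven by transcription factors such as HNF4A, the FOXA factors and CEBPA, and its output is mainly plasma proteins, lipoproteins and enzymes of drug and amino acid metabolism. Cells that lose it often gain extracellular matrix, integrins and cytoskeletal proteins, and genes silenced in a tumor line, such as those with methylated CpG-rich promoters, often stay silent through later selection.

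Poly(A)-enriched RNA was sequenced, and the deposited values are CPM, that is reads of a gene scaled to a common library total, so that the levels of one gene can be compared between libraries and those of different genes cannot, as they are not divided by gene length. The resistant libraries held 46613302 to 76407060 reads, and a count of 3 reads, the limit that a count of 0 allows, is 0.0393 to 0.0644 CPM in them. Replicates of Huh7-IR differed more than those of the other resistant groups, by a root mean square of 0.566 on the log2(CPM + 1) scale against 0.29 to 0.313. Markers of hepatocyte origin were present in all 8 libraries: ALB, encoding albumin, had 60.6 to 2305 CPM in resistant Huh7 and 655 to 5526 CPM in resistant Hep3B cells, and HNF4A had 23.7 to 110 CPM in resistant Huh7 and 115 to 220 CPM in resistant Hep3B cells. The leukocyte markers PTPRC and CD3E and the endothelial marker CDH5 were at or near 0. Their means in resistant Huh7 and Hep3B cells were 0.147 and 0.0705 CPM for PTPRC, 0 and 0.0287 CPM for CD3E and 0.00536 and 0 CPM for CDH5. PECAM1, another endothelial marker, was higher in Hep3B under each of 18 alternative settings (log2 difference -2.74 to -0.19), and its call changed in 6 of them. CD68, also listed as a marker of non-hepatocyte cells, was not near 0. Its means were 53.2 CPM in resistant Huh7 and 38.6 CPM in resistant Hep3B cells, after 4.03 and 8.90 CPM in the parental lines. Of the 20 listed markers of non-hepatocyte cells, between 4 and 9 reached 1 CPM in a resistant library, and their summed level was 125.8 to 456.0 CPM in resistant Huh7 against 59.25 to 79.98 CPM in resistant Hep3B cells. Of the 11 markers tested, 6 were called higher in resistant Huh7 and 1 in resistant Hep3B cells, beside 22.8% and 23.8% of all tested genes. The matrix genes LUM and COL3A1 were also among the 20. LUM had 31.9 to 231 CPM in resistant Huh7 and 16 to 22.1 CPM in resistant Hep3B cells. COL3A1 had 14.3 to 98.9 CPM in resistant Huh7 and 0.0132 to 0.0669 CPM in resistant Hep3B cells. The listed marker ACTA2 had 1.65 to 9.83 CPM in resistant Huh7 and 0.0265 to 0.0762 CPM in resistant Hep3B cells. LUM had been higher in Huh7 before resistance as well, with 277 and 329 CPM in parental Huh7 and 32.9 and 21.7 CPM in parental Hep3B cells. The part of other cells in any result was not tested.

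Resistant Huh7 and resistant Hep3B cells stayed far apart. The first principal component of the 8 resistant libraries held 77.0% of their variance and placed all Huh7 libraries between 75.1 and 77.8 and all Hep3B libraries between -85.2 and -68.5. The second component, with 10.8%, separated IR from CR cells, in opposite directions in the 2 lines. The root mean square difference between group means over 15019 tested genes was 1.38 between Huh7-IR and Hep3B-IR and 1.28 between Huh7-CR and Hep3B-CR, and it was 1.20 between the parental and 1.19 between the DMSO groups. Within a line, IR and CR cells differed by 0.572 in Huh7 and 0.574 in Hep3B. By this measure, which was given no test, the resistant lines were no closer to each other than the untreated lines.

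A gene was called when its log2 difference was at least 0.58 in size with a Benjamini-Hochberg adjusted p under 0.05 in limma, and all differences are Huh7 minus Hep3B on the log2(CPM + 1) scale, which understates the differences of low genes. Of 15019 genes tested, 7002 (46.6%) differed between resistant Huh7 and resistant Hep3B cells, 3420 (22.8%) being higher in Huh7 and 3582 (23.8%) in Hep3B. The shares of 22.8% and 23.8% are the reference for the count of every gene list below. Within IR cells 7718 genes (51.4%) were called and within CR cells 6735 (44.8%), and 4295 genes were called in the mean contrast and with one sign in both regimens. In parental cells 6403 genes (42.6%) were called. Ignoring the fit, all 4 Huh7 libraries lay on one side of all 4 Hep3B libraries for 7212 genes (48.0%), of which 5810 were also called.

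These calls were sorted into 4 classes. A difference was kept when it was called with the same sign in parental and in resistant cells, which held for 3846 genes (25.6%), or 60.1% of the parental and 54.9% of the resistant calls. Of them, 1733 were higher in Huh7 and 2113 in Hep3B, and 2784 (18.5%) were also called within IR and within CR cells. The untreated DMSO libraries formed neither contrast, but they shared the filter and the estimate of the spread with them. In DMSO cells 3213 of the 3846 (83.5%) were called with the same sign, which is not an independent check. The Huh7-DMSO replicates differed by a root mean square of 0.587, the most of the 8 groups. Like levels were reached where a parental difference of at least 1 was called, its change with resistance was called, and the 95% confidence interval of the resistant difference lay within -1 and 1, which held for 854 genes (5.69%). A difference was gained where the resistant difference and its change were called and the interval of the parental difference lay within -1 and 1, which held for 1254 genes (8.35%), and it was turned round for 248 genes (1.65%) called in both states with opposite signs and a called change. The change itself, the resistant minus the parental line difference, was called for 4414 genes (29.4%), 2451 (16.3%) toward Huh7 and 1963 (13.1%) toward Hep3B. The parental and resistant differences share no library, and their Pearson correlation was 0.688 across the 15019 genes, while that of the IR and CR differences was 0.768. These are descriptions across genes, which are not independent replicates.

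**Figure D1:**
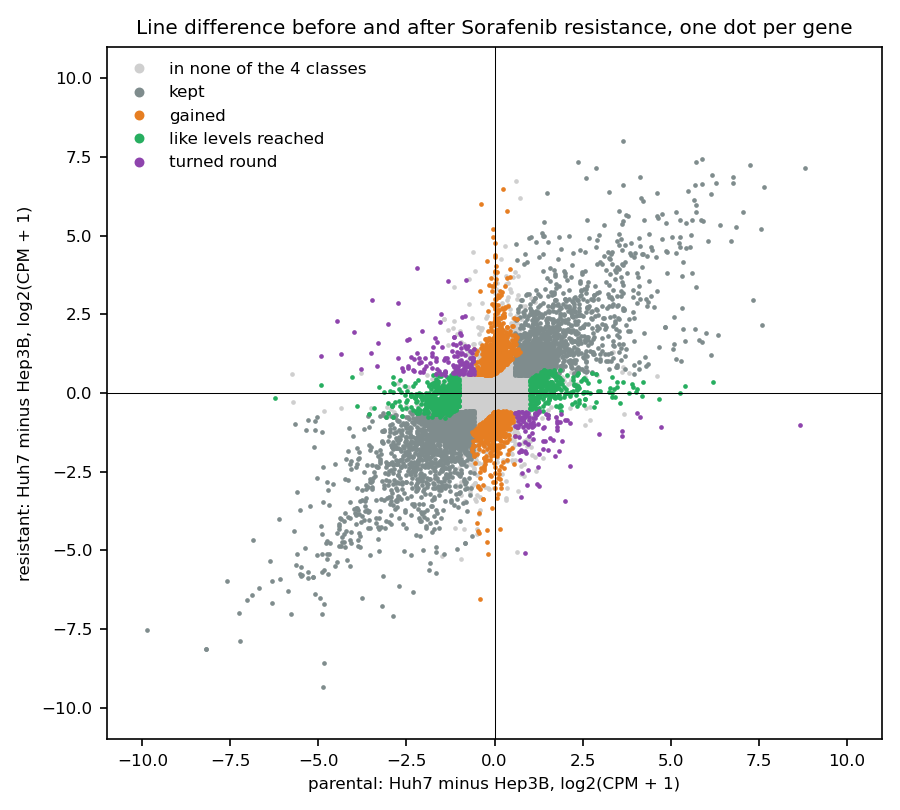
Each dot is a tested gene with a symbol. The x axis gives its Huh7 minus Hep3B difference in parental cells and the y axis the same difference in resistant cells, both as log2(CPM + 1). Kept genes (grey) lie along the diagonal, genes that reached like levels (green) along the horizontal line, gained differences (orange) along the vertical line and turned differences (purple) in the 2 opposite corners.

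The larger a line difference was in parental cells, the more often it was found again in resistant cells. Of 2652 genes with a called parental difference of 0.58 to 1, 45.6% were kept, of 2550 genes from 1 to 2 64.4%, of 974 genes from 2 to 4 81.1%, and of 227 genes at 4 or more 89.9%. Like levels were reached by 28.2%, 12.8% and 4.85% of the last 3 classes. For genes at 4 or more the median parental difference was 4.91 in size and the median resistant difference in the same direction 4.43. A small difference misses the threshold more easily than a large one, and its part in this order was not tested.

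RB1 (chromosome 13, 48877880 to 49173572, GRCh37), which encodes the retinoblastoma protein that holds back E2F factors, had 119 and 116 CPM in Huh7-CR, 157 and 159 CPM in Huh7-IR, 3.6 and 3.12 CPM in Hep3B-CR and 6.3 and 5.4 CPM in Hep3B-IR libraries. Every resistant Huh7 library lay far above every resistant Hep3B library, and the difference was 4.65 ± 0.108 (SE, adjusted p = 8.11e-12, limma) in resistant and 4.44 in parental cells, with a change of 0.22 that was not called (adjusted p = 0.419, limma). CDKN2A, whose product p16 acts upstream of RB1, ran the other way, with 9.59 to 17.2 CPM in resistant Huh7 and 79 to 111 CPM in resistant Hep3B cells and a difference of -2.83.

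The most extreme kept differences were taken from genes also called within IR and within CR whose resistant libraries did not overlap between the lines. The 6 with the highest values toward Huh7 were in TNC, MGLL, DPYSL3, COL1A2, VCAN and GSTP1. TNC (chromosome 9, 117781854 to 117880486, GRCh37), a matrix glycoprotein, had 489 and 314 CPM in Huh7-CR, 107 and 276 CPM in Huh7-IR, 0 and 0.0381 CPM in Hep3B-CR and 0.0134 and 0 CPM in Hep3B-IR libraries. It was off in all resistant Hep3B libraries, and its difference was 8.01 ± 0.52 (SE, adjusted p = 4.44e-08, limma) in resistant and 3.64 ± 0.735 (SE, adjusted p = 0.00133, limma) in parental cells, where the 2 Huh7 libraries differed widely, with 36.8 and 3.24 CPM. MGLL (chromosome 3, 127407905 to 127771033, GRCh37), which encodes monoacylglycerol lipase, had 151 to 195 CPM in resistant Huh7 and 0 to 0.0284 CPM in resistant Hep3B cells, with a difference of 7.44 ± 0.252 (SE, adjusted p = 1.03e-10, limma). VCAN, the proteoglycan versican, had the same difference before and after resistance, 7.25 and 7.25. DPYSL3, a regulator of the cytoskeleton, differed by 7.34. COL1A2, a chain of type I collagen, moved up in Huh7 alone, from 4.38 and 5.16 CPM in parental cells to 202 to 405 CPM, beside 0.128 to 1.87 CPM in resistant Hep3B cells, so that its line difference grew from 2.37 to 7.34 with a change of 4.97 ± 0.483 (SE, adjusted p = 1.91e-05, limma). GSTP1 (chromosome 11, 67351213 to 67354127, GRCh37), the glutathione transferase whose promoter is a known target of CpG methylation in liver and prostate cancer, had 201 and 202 CPM in Huh7-CR, 108 and 132 CPM in Huh7-IR, 0.132 and 0.152 CPM in Hep3B-CR and 0.0134 and 0.0569 CPM in Hep3B-IR libraries. It remained far higher in Huh7 (7.16 ± 0.145 (SE, adjusted p = 4.80e-12, limma)), although it had been higher still in parental Huh7 cells, at 627 and 393 CPM.

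The 6 toward Hep3B were in IGFBP7, APOA2, SNRPN, SNURF, MSN and H19. IGFBP7 (chromosome 4, 57896939 to 57976551, GRCh37), a secreted IGF-binding protein, had 0.155 and 0.0785 CPM in Huh7-CR, 0.0829 and 0.172 CPM in Huh7-IR, 783 and 446 CPM in Hep3B-CR and 1020 and 798 CPM in Hep3B-IR libraries. The difference of -9.35 ± 0.377 (SE, adjusted p = 5.26e-10, limma) was larger in size than the -4.86 of parental cells. Hep3B cells had risen from 43.7 and 20.2 CPM, and parental Huh7 cells had 0.102 and 0.0134 CPM. APOA2 (chromosome 1, 161192082 to 161193421, GRCh37), an apolipoprotein of high-density lipoprotein, had 0.819 and 0.484 CPM in Huh7-CR, 0.829 and 0.708 CPM in Huh7-IR, 992 and 1372 CPM in Hep3B-CR and 204 and 627 CPM in Hep3B-IR libraries. It fell with resistance in both lines, by 5.79 in Huh7 and by 2.06 in Hep3B on the log2 scale, and the difference went from -4.84 to -8.57 with a change of -3.73 ± 0.531 (SE, adjusted p = 2.91e-04, limma). SNRPN and SNURF (chromosome 15, 25068784 to 25223870 for SNRPN, GRCh37) are read from one imprinted transcript and hold the same counts, so they are 1 observation. Their level was 0.0131 to 0.149 CPM in resistant Huh7 and 266 to 315 CPM in resistant Hep3B cells, with differences of -8.18 in parental and -8.14 in resistant cells. MSN (chromosome X, 64808257 to 64961793, GRCh37), which encodes moesin, a linker between membrane and actin, had 0.0858 to 0.757 CPM in resistant Huh7 and 244 to 366 CPM in resistant Hep3B cells, a difference of -7.89 ± 0.266 (SE, adjusted p = 9.99e-11, limma). H19 (chromosome 11, 2016396 to 2025782, GRCh37), an imprinted oncofetal RNA, fell in Hep3B from 2647 and 3245 CPM to 186 to 1082 CPM but stayed above Huh7, where it had 0.825 to 3.24 CPM (difference -7.52).

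**Figure D2:**
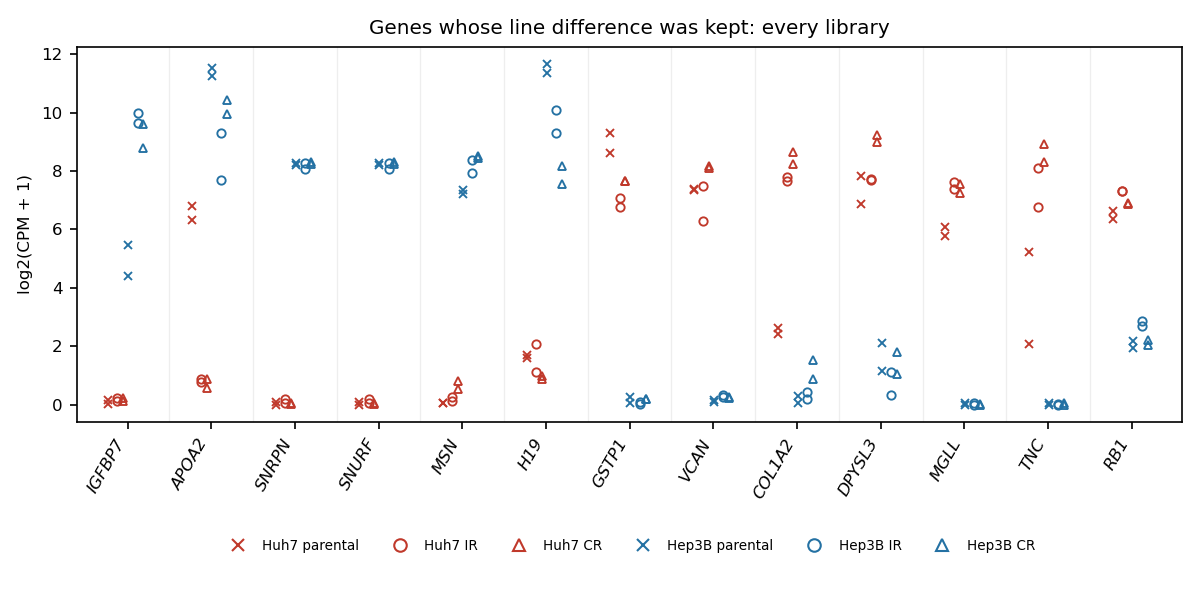
Every parental and resistant library (y axis, log2(CPM + 1)) for the 12 kept genes with the most extreme resistant differences and for RB1, with Huh7 in red and Hep3B in blue. The 12 genes were chosen for having no overlap between the resistant libraries of the lines, and those of RB1 do not overlap either. Resistant differences run from -9.35 for IGFBP7 to 8.01 for TNC.

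Some genes were read in one line only. Off was set at under 0.1 CPM in all 4 resistant libraries of one line and on at 1 CPM or more in all 4 of the other. Of 15019 genes tested, 183 were on in Huh7 and off in Hep3B, and 149 were on in Hep3B and off in Huh7. The same pattern was already complete in both parental libraries of each line for 100 and 85 of them. Of the 183, 63 had been under 1 CPM in both parental Huh7 libraries, as had 16 of the 149 in parental Hep3B. Chromosome X held 3.3% of the tested genes, 8.74% of the genes on in Huh7 only and 25.5% of those on in Hep3B only. Over all 495 tested genes of chromosome X the order was the other way. Of them 34.5% were higher in resistant Huh7 and 21.8% in resistant Hep3B cells, with a median difference of 0.25. The 38 X-linked genes on in Hep3B only included CHM, BRWD3 and EFNB1. The genes on in Hep3B only also included SNORD116 copies, IPW and PWAR5, which lie in the imprinted region of SNRPN and share its transcript. KIF1A, CCND2, GSTT1, FGFR2, DLK1 and CYP2B6 were others.

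The promoters of 4 genes with large kept differences are shown, because the CpG content of a promoter bears on how a silent gene may be held silent and these 4 span a wide range of it. They are the 250 bases before the start site from RefSeq on GRCh38.p14, 5′ to 3′ on the strand of the gene, with each CG in capitals. GSTP1 and TNC were near 0 in resistant Hep3B cells. APOA2 was under 1 CPM in resistant Huh7 cells, and so was PTK7, which encodes a pseudokinase of Wnt signaling, with means of 0.189 CPM in resistant Huh7 and 119.8 CPM in resistant Hep3B cells and a difference of -6.66.
GSTP1, chr11:67583562-67583811, plus strand, 28 CG: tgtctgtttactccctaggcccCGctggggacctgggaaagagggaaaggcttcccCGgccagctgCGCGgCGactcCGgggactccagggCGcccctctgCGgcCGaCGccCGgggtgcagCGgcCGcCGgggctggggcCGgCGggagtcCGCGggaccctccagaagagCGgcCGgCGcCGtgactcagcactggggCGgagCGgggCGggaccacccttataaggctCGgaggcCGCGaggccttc
TNC, chr9:115118158-115118407, minus strand, 12 CG: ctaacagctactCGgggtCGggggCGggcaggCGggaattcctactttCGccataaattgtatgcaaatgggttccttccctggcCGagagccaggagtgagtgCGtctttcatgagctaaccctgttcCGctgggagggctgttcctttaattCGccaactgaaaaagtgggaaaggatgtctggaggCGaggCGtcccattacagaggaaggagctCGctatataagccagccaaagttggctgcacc
PTK7, chr6:43076064-43076313, plus strand, 24 CG: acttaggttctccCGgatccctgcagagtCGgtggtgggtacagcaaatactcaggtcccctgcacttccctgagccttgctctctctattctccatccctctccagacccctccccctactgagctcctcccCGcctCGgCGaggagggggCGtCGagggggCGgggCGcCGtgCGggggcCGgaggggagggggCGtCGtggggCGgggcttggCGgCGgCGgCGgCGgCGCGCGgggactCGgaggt
APOA2, chr1:161223629-161223878, minus strand, 0 CG: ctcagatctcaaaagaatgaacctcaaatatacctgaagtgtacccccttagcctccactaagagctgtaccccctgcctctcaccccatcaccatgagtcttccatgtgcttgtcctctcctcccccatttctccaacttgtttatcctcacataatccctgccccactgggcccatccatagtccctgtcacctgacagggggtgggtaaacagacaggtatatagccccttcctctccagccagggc
CG, which reads the same on both strands, was counted in this window for every tested gene that has one, 11742 of 15019, with a median of 20 and with 15 or more in 69.9% of them. The 125 genes on in Huh7 only that have a window had a median of 12 and 15 or more in 43.2%, and the 109 on in Hep3B only a median of 16 and 15 or more in 56.0%. Genes that reached like levels (674) and genes with a gained difference (972) had medians of 20 and 19. The genes on in 1 line only thus had fewer CG at the median than tested genes as a whole, which was given no test, and no methylation was measured.

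Genes of the mesenchymal state were mostly higher in Huh7 and epithelial genes mostly higher in Hep3B. In parental cells 14 mesenchymal genes were higher in Huh7 and 2 in Hep3B, and 3 and 9 epithelial genes. Of 26 members tested, 16 were higher in resistant Huh7 and 1 in resistant Hep3B cells, 9 were not called, and the median log2 difference was 1.41 for mesenchymal and matrix genes, against -0.02 over all tested genes, with 11 kept differences. COL4A1, a chain of the basement membrane collagen IV, had 137 to 232 CPM in resistant Huh7 and 0.146 to 1.45 CPM in resistant Hep3B cells, with a difference of 6.74 ± 0.254 (SE, adjusted p = 2.75e-10, limma). FN1, fibronectin, had 3835 to 10558 CPM in resistant Huh7 and 2469 to 2964 CPM in resistant Hep3B cells (difference 1.39), and VIM, the intermediate filament vimentin, had 2942 and 2286 CPM in Huh7-CR, 3639 and 2646 CPM in Huh7-IR, 2063 and 1194 CPM in Hep3B-CR and 1333 and 1039 CPM in Hep3B-IR libraries. VIM did not overlap between the lines and differed by 1.06 ± 0.175 (SE, adjusted p = 1.73e-04, limma). CCN2, a matrix-associated target of YAP, was the exception at -1.06. Its lines overlapped, and it was called within IR (-1.76) and not within CR (-0.37).

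Among epithelial genes the counts were reversed. Of 22 members tested, 3 were higher in resistant Huh7 and 13 in resistant Hep3B cells, 6 were not called, and the median log2 difference was -1.59. ESRP1, a splicing factor that sets epithelial isoforms, had 0.371 and 0.105 CPM in Huh7-CR, 0.746 and 0.15 CPM in Huh7-IR, 235 and 177 CPM in Hep3B-CR and 165 and 111 CPM in Hep3B-IR libraries. It was under 1 CPM in every resistant Huh7 library and its difference of -6.98 ± 0.42 (SE, adjusted p = 2.16e-08, limma) stood beside -7.26 in parental cells, a change that was not called (adjusted p = 0.805, limma). KRT23 differed by -6.40 and ST14, the membrane protease matriptase, by -5.13. CDH1, E-cadherin, had 57.6 and 95.4 CPM in Huh7-CR, 21.9 and 39 CPM in Huh7-IR, 226 and 291 CPM in Hep3B-CR and 312 and 327 CPM in Hep3B-IR libraries, without overlap (-2.59 ± 0.347 (SE, adjusted p = 3.26e-05, limma)). It rose in Hep3B by 1.79 with resistance, to 226 to 327 CPM from 84.1 and 80.2 CPM. Toward Huh7 were CLDN6 (1.62), which had fallen in Huh7 from 90.8 and 75.2 CPM to 1.97 to 2.66 CPM, ELF3 (1.36) and MUC1 (0.86), and MUC1 was called at no more than 1.96 CPM.

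Integrins, the receptors for matrix, were divided between the lines. Of 17 members tested, 7 were higher in resistant Huh7 and 3 in resistant Hep3B cells, 7 were not called, and the median log2 difference was -0.01, and 3 differences were kept. Over all tested genes 22.8% were higher in Huh7, 23.8% higher in Hep3B and 25.6% kept. ITGA4 had 34.9 to 44.4 CPM in resistant Huh7 and 0.782 to 3.85 CPM in resistant Hep3B cells (3.87 ± 0.239 (SE, adjusted p = 2.72e-08, limma)), and ITGB8 7.14 to 16.5 CPM in resistant Huh7 and 0.0569 to 0.768 CPM in resistant Hep3B cells. ITGB4, the partner of ITGA6 in hemidesmosomes, had 17.2 to 22.8 CPM in resistant Huh7 and 63.6 to 119 CPM in resistant Hep3B cells, with -2.30 ± 0.276 (SE, adjusted p = 1.26e-05, limma). The widely used subunits ITGB1 and ITGAV differed by -0.44 and -0.40 and were not called.

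In the mean of IR and CR cells, the remaining hepatocyte program was larger in resistant Hep3B than in resistant Huh7 cells. The line difference was called apart between regimens for 10 of 24 liver transcription factors and 11 of 32 plasma proteins, beside 25.5% of all tested genes. Of 24 members tested, 6 were higher in resistant Huh7 and 12 in resistant Hep3B cells, 6 were not called, and the median log2 difference was -0.64 for liver transcription factors. CEBPA, which sustains hepatocyte metabolism, had 2.32 and 4.67 CPM in Huh7-CR, 3.5 and 7.08 CPM in Huh7-IR, 70.5 and 69 CPM in Hep3B-CR and 58.7 and 65.6 CPM in Hep3B-IR libraries. Its lines had not been called apart in parental cells (-0.40) and were far apart in resistant cells (-3.71 ± 0.223 (SE, adjusted p = 2.16e-08, limma)) after it fell by 4.65 in Huh7 and by 1.35 in Hep3B. FOXA1, a pioneer factor, differed by -3.20 and NR0B2, the nuclear receptor SHP that represses bile acid synthesis, by -3.36. HNF4A, the central factor of the program, had 72.1 and 110 CPM in Huh7-CR, 23.7 and 63.8 CPM in Huh7-IR, 119 and 115 CPM in Hep3B-CR and 220 and 154 CPM in Hep3B-IR libraries. Huh7-CR replicate 2 came close to the lowest Hep3B library, and the difference was -1.30 ± 0.24 (SE, adjusted p = 4.37e-04, limma) against 0.16 in parental cells. It was called within IR (-2.21) and not within CR (-0.39, adjusted p = 0.356, limma). CREB3L3, a membrane-bound factor of the fasting response (3.24), TBX3 (2.21) and GATA6 (1.22) were higher in Huh7.

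The plasma proteins showed the same order in the mean of IR and CR cells. Of 32 members tested, 5 were higher in resistant Huh7 and 19 in resistant Hep3B cells, 8 were not called, and the median log2 difference was -1.72, beside a median of -0.40 in parental cells. Their summed level over all 34 listed genes was 218.4 to 3603 CPM in resistant Huh7 and 2777 to 12350 CPM in resistant Hep3B cells, and 14310 to 19620 CPM and 22590 to 28590 CPM in parental cells. SERPINA1, alpha-1 antitrypsin, had 42.2 and 62.7 CPM in Huh7-CR, 9.48 and 48.1 CPM in Huh7-IR, 336 and 430 CPM in Hep3B-CR and 1161 and 2052 CPM in Hep3B-IR libraries, without overlap (-4.48 ± 0.41 (SE, adjusted p = 1.07e-06, limma)), although the parental lines were not called apart (-0.50). AHSG, fetuin-A, differed by -4.75 and AMBP by -5.08. AMBP had been higher in parental Huh7 cells (0.85, 1080 and 1006 CPM), and it stood at 1.24 to 13.8 CPM in resistant Huh7 and 112 to 358 CPM in resistant Hep3B cells. The fibrinogen chains FGA (1.35) and FGB (1.98) and complement C3 (1.62) were higher in Huh7, with libraries that overlapped. FGA and FGB were called within CR (3.22 and 3.85) and not within IR (-0.52 and 0.11). The call of FGA was lost without Huh7-IR replicate 2 (0.65), Huh7-CR replicate 2 (0.96), Hep3B-CR replicate 1 (1.25) or Hep3B-IR replicate 1 (1.24), and that of FGB without Huh7-CR replicate 2 (1.62). In bulk RNA, fewer cells with a transcript and less of it per cell cannot be told apart.

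Of the hepatocyte metabolism genes, 2 of 25 were higher in Huh7 and 10 in Hep3B, beside 22.8% and 23.8% of all tested genes. MTTP, which loads lipid onto apolipoprotein B, had 0.249 to 0.366 CPM in resistant Huh7 and 9.69 to 20.6 CPM in resistant Hep3B cells. It was higher in Hep3B (-3.44) and had been higher in parental Huh7 cells (1.99). GLUL (0.12) and PCK2 (-0.38) were not called. CYP3A5 (1.42) and CPS1 (0.88) were the 2 higher in Huh7, and the call of CPS1 was lost on leaving out any of 5 of the 8 libraries (0.79 to 0.92).

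Drug transporters and conjugation enzymes differed in most members tested. Of 35 members tested, 9 were higher in resistant Huh7 and 19 in resistant Hep3B cells, and 7 were not called. The median log2 difference was -0.83, and 19 differences were kept. The line difference was called apart between regimens for 13 of the 35 members, beside 25.5% of all tested genes. Over all tested genes 22.8% were higher in Huh7, 23.8% higher in Hep3B and 25.6% kept. The change of the line difference was called for 16 members, all toward Hep3B. Over all tested genes it was called for 29.4%, with 16.3% toward Huh7 and 13.1% toward Hep3B. Hep3B cells were higher in the conjugating enzymes SULT1E1 (0.199 to 5.46 CPM in resistant Huh7 and 32.4 to 320 CPM in resistant Hep3B cells, difference -5.12), UGT2B4 (-3.89) and UGT2B7 (-3.70), and in the efflux pumps ABCB1 (-2.13) and ABCC1 (-1.26). Huh7 cells were higher in GSTP1, in the aldo-keto reductases AKR1B10 (3.18), AKR1C1 (1.03), AKR1C2 (1.90) and AKR1C3 (1.30), and in NQO1 (1.52). The 3 AKR1C genes were higher in Huh7 within CR (2.97, 3.72 and 2.65) and stood at -0.91, 0.08 and -0.06 within IR. GSTT1 was at 0 in 3 of the 4 resistant Huh7 libraries and had 24.6 to 33.9 CPM in Hep3B cells. GSTM, GSTT, UGT and AKR1C genes have near-identical copies, and reads with more than 1 hit were discarded by the authors, so their levels are uncertain. The transporter ABCC3 had 89.7 to 243 CPM in resistant Huh7 and 111 to 152 CPM in resistant Hep3B cells and was not called (-0.11), and its relative ABCC4 was higher in Hep3B (-0.85).

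HOX genes, which set position along the body, cancer-testis genes, which are silent in most adult tissues, and oncofetal genes had kept differences in most members tested. Over all tested genes 25.6% were kept, or 60.1% of those called in parental cells. Parental calls were made for 15 of 16 HOX, 7 of 9 cancer-testis and 18 of 24 oncofetal and Wnt target genes. Of 16 HOX genes tested, 8 were higher in resistant Huh7 and 2 in resistant Hep3B cells, and 6 were not called. Their median log2 difference was 0.47, and 10 of the 16 were kept. HOXC10 had 1.65 to 13.7 CPM in resistant Huh7 and was at 0 in all 4 resistant Hep3B libraries, so it was at least 132-fold higher in Huh7, taking 3 reads in the shallowest of the 4 as the floor per library. HOXC6 was off in Hep3B as well, and HOXA7 (-3.13) and HOXA9 (2.33), which are neighbors in one cluster, differed in opposite directions. Of 9 cancer-testis genes tested, 4 were higher in either line and 7 kept. MAGEB2 had 76.1 to 111 CPM in resistant Huh7 and 0 to 0.0134 CPM in resistant Hep3B cells (6.55 ± 0.104 (SE, adjusted p = 1.63e-12, limma)), PRAME differed by 4.38, and MAGEA2, MAGEA3 and MAGEA6, near-identical copies whose counts are uncertain, were higher in Hep3B (-4.32, -4.15 and -3.77). SSX4 was at 0 in every resistant and parental Hep3B library and at 0.102 and 0.0268 CPM in parental Huh7, and it reached 5.86 to 10.4 CPM in resistant Huh7 cells, at least 132-fold above the same floor. SSX4B is a near-identical copy. Among oncofetal and Wnt target genes 5 were higher in Huh7 and 13 in Hep3B of 24 tested, and 14 were kept. AXIN2 (2.81), a feedback target of Wnt signaling, and LIN28B (2.35) were higher in Huh7, TCF7 (-3.01) and DLK1 (-2.20) in Hep3B.

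Like levels were reached by 854 genes, or 5.69% of those tested, of which 347 had been higher in parental Huh7 and 507 in parental Hep3B cells. In 698 of them both resistant lines had a mean of at least 1 CPM, in 139 both were under it and in 17 one was. Among the 698, the change with resistance was called in Huh7 alone for 341, in Hep3B alone for 136, in both lines for 161 and in neither for 60. The class rests on the mean of IR and CR cells, and 454 of the 854 were called in neither regimen, 339 in 1 regimen, 15 in both with one sign, and 46 in both with opposite signs. In 351 the interval lay within -1 and 1 in each regimen on its own. Also, 73 of the 854 were still called, with a small difference, and so count as kept as well.

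The 5 like-level genes with the lowest parental differences were PRTG, TMSB4X, SMAD1, ZNF883 and RCN1. PRTG (chromosome 15, 55903742 to 56035350, GRCh37), an adhesion protein of the embryo, went from 0.451 and 0.603 CPM in parental Huh7 and 45.4 and 45.3 CPM in parental Hep3B cells to 6.62 and 5.73 CPM in Huh7-CR, 28.9 and 12.8 CPM in Huh7-IR, 7.15 and 8.26 CPM in Hep3B-CR and 10.9 and 10.9 CPM in Hep3B-IR libraries. The lines met from both sides, Huh7 rising by 2.98 and Hep3B falling by 2.19, and the resistant difference was 0.25 (95% interval -0.18 to 0.67) against -4.93. SMAD1, which carries BMP signals, rose in Huh7 from 0.48 and 0.402 CPM to 15.3 to 19.4 CPM, beside 20 to 31.1 CPM in Hep3B cells. Its libraries still did not overlap, with a difference of -0.42 (95% interval -0.77 to -0.07). RCN1, a calcium-binding protein of the endoplasmic reticulum, had 301 and 223 CPM in Huh7-CR, 202 and 174 CPM in Huh7-IR, 254 and 253 CPM in Hep3B-CR and 121 and 180 CPM in Hep3B-IR libraries, after 18.5 and 9.74 CPM in parental Huh7 and 140 and 140 CPM in parental Hep3B cells. It was the only one of the 10 named like-level genes whose interval lay within -1 and 1 in both regimens. TMSB4X, the actin-binding thymosin beta 4, rose in Huh7 from 27.1 and 14.8 CPM to 286 and 371 CPM in IR and 1037 and 1116 CPM in CR cells. Its mean difference of 0.51 joined -0.95 within IR and 1.96 within CR, which differed from each other (adjusted p = 2.71e-04, limma). ZNF883 was still called (-0.66 against -3.55 in parental cells).

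The 5 with the largest parental differences were TM4SF1, CA2, HSD17B2, SYTL5 and MISP. TM4SF1 (chromosome 3, 149086809 to 149095479, GRCh37), a tetraspanin-like surface protein of cancer cells, had 1479 and 1056 CPM in parental Huh7 and 42.3 and 18.7 CPM in parental Hep3B cells and 1026 and 1591 CPM in Huh7-CR, 277 and 810 CPM in Huh7-IR, 409 and 334 CPM in Hep3B-CR and 1298 and 1092 CPM in Hep3B-IR libraries. It rose in Hep3B by 4.51, and its mean difference of 0.23 was made of -1.33 in IR and 1.79 in CR cells, so like levels were not reached in either regimen. CA2, carbonic anhydrase 2, went the other way. It fell in Huh7 from 143 and 120 CPM to 1.18 to 14.4 CPM, beside 3.28 to 10.4 CPM in resistant Hep3B cells. HSD17B2, which inactivates estradiol and testosterone, fell in Huh7 by 3.28, and SYTL5, a vesicle protein, by 2.84. MISP, which anchors the mitotic spindle, rose in Hep3B from 2.84 and 3.19 CPM to 13.9 to 42.7 CPM and fell in Huh7 from 45.5 and 47.6 CPM to 19.2 to 25.5 CPM. KRT18, a keratin of hepatocytes, met as well, with 432 to 1489 CPM in resistant Huh7 and 954 to 1143 CPM in resistant Hep3B cells (-0.26 against 1.22).

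HIF1A (chromosome 14, 62162231 to 62214977, GRCh37), the oxygen-regulated factor at the center of the study, was also a like-level gene at the RNA level. It had 814 and 1138 CPM in parental Huh7 and 308 and 339 CPM in parental Hep3B cells, and 588 and 791 CPM in Huh7-CR, 437 and 566 CPM in Huh7-IR, 506 and 407 CPM in Hep3B-CR and 650 and 538 CPM in Hep3B-IR libraries. The resistant lines overlapped, and the mean difference was 0.17 (95% interval -0.17 to 0.51) against 1.57 in parental cells, with a change of -1.40 ± 0.269 (SE, adjusted p = 0.00211, limma). Within CR the lines did not overlap and HIF1A was higher in Huh7 (0.59 ± 0.22 (SE, adjusted p = 0.0401, limma)), and within IR it was not called (-0.25), so that like levels held for the mean and not in each regimen. HIF1A RNA fell in Huh7 (-0.72) and rose in Hep3B (0.68), and its protein, which is controlled mainly by degradation, was not measured here. EPAS1, the related factor HIF2α, had a mean difference of -0.18 (95% interval -0.52 to 0.16) in resistant and 0.02 in parental cells, neither called, and was higher in Hep3B within CR (-0.59 ± 0.222 (SE, adjusted p = 0.0414, limma)). USP29, the deubiquitinase studied with HIF1A, did not pass the filter of 1 CPM in 2 libraries.

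**Figure D3:**
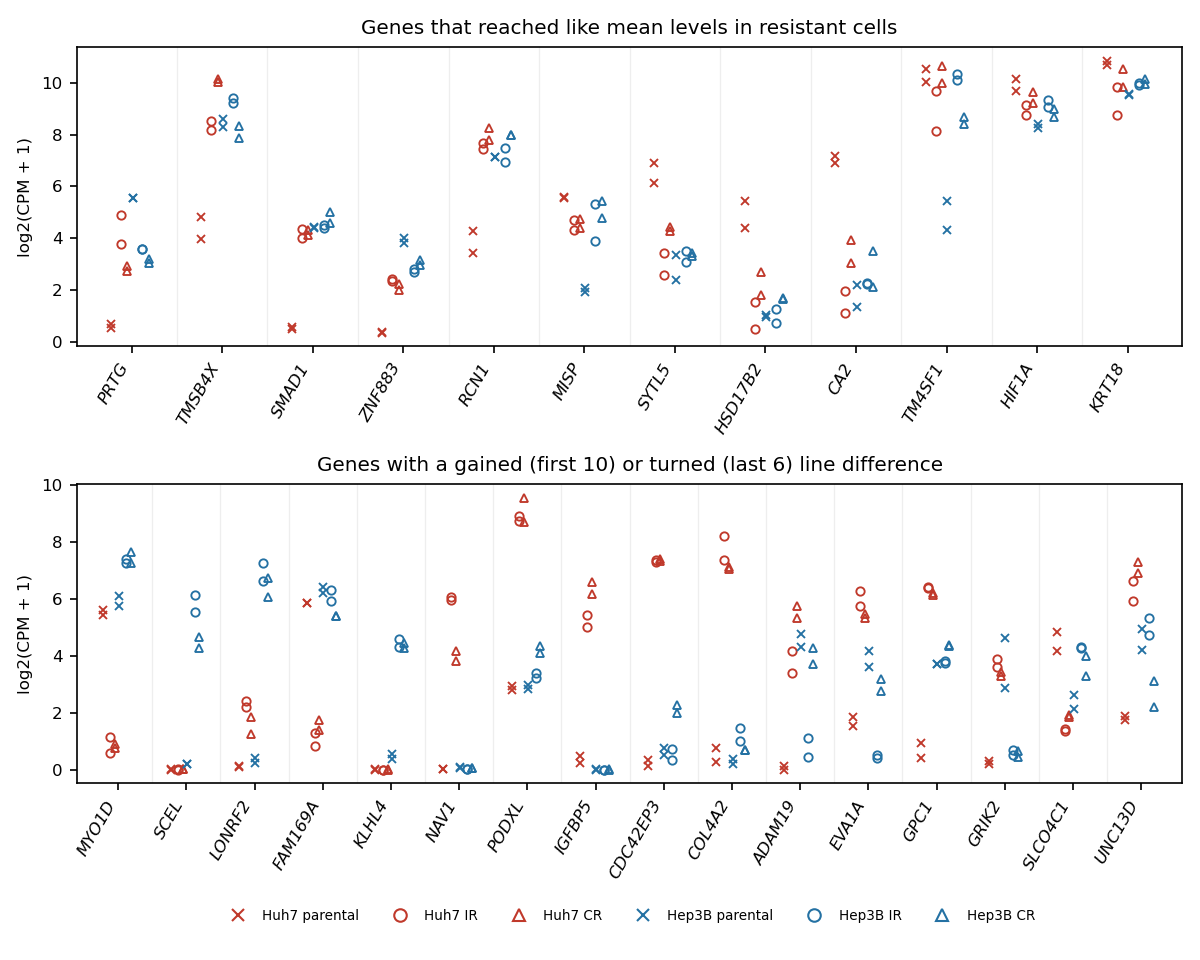
Every parental and resistant library (y axis, log2(CPM + 1)), with Huh7 in red and Hep3B in blue. In the upper panel the parental crosses of the lines stand apart and the resistant circles (IR) and triangles (CR) come near each other, except that TMSB4X and TM4SF1 cross over between regimens. In the lower panel the resistant symbols separate (first 10 genes) or change order (last 6).

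Hypoxia and glycolysis genes differed about as often as tested genes as a whole, of which 22.8% were higher in Huh7 and 23.8% in Hep3B. Of 41 members tested, 9 were higher in resistant Huh7 and 11 in resistant Hep3B cells, 21 were not called, and the median log2 difference was 0.16, with 6 kept, 4 at like levels and 2 gained. The core glycolytic enzymes GAPDH (0.16), ENO1 (0.16), ALDOA (0.01), PKM (0.34) and TPI1 (0.38) were not called in the mean, and PKM was called within CR (0.63). Hexokinases, which take the first step, were used differently. HK1 (chromosome 10, 71029740 to 71161640, GRCh37) had 76.1 and 78.5 CPM in Huh7-CR, 128 and 120 CPM in Huh7-IR, 0.185 and 0.209 CPM in Hep3B-CR and 0.254 and 0.156 CPM in Hep3B-IR libraries. All resistant Huh7 libraries lay far above the resistant Hep3B libraries, which were near 0, and the difference of 6.37 ± 0.172 (SE, adjusted p = 1.82e-11, limma) had grown from 1.49. HKDC1 ran the other way, with 95.3 to 122 CPM in resistant Huh7 and 390 to 688 CPM in resistant Hep3B cells (-2.29 ± 0.272 (SE, adjusted p = 1.11e-05, limma)), and HKDC1 had been at 4.8 and 2.08 CPM in parental Huh7 and 18.3 and 11.4 CPM in parental Hep3B cells. HK2 was also higher in Hep3B (-0.65), a call that was lost without Hep3B-CR replicate 2 (-0.50) or Huh7-IR replicate 1 (-0.58). PFKP, a phosphofructokinase, differed by -2.91 without a parental call (0.18), while ALDOC (2.99) and LDHA (1.66) were higher in Huh7.

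AXL, AHNAK2 and SLC2A1, which the study followed as HIF1A targets, had unequal patterns. AXL, a receptor kinase tied to drug resistance, went from 0.0582 and 0.0268 CPM in parental Huh7 and 0.821 and 0.76 CPM in parental Hep3B cells to 139 to 214 CPM in resistant Huh7 and 45.1 to 163 CPM in resistant Hep3B cells. The lines overlapped, and the difference of 0.88 ± 0.262 (SE, adjusted p = 0.0103, limma) was not called without Hep3B-IR replicate 2 (0.54), by edgeR (0.85), by DESeq2 (0.85) or with the 8 libraries in 2 groups by line (0.88). It was called within IR (1.45) and not within CR (0.31). AHNAK2, a large scaffold protein, had 122 and 97.7 CPM in Huh7-CR, 427 and 251 CPM in Huh7-IR, 101 and 62 CPM in Hep3B-CR and 28.6 and 6.42 CPM in Hep3B-IR libraries, from under 1 CPM in all parental libraries. Huh7-CR and Hep3B-CR libraries overlapped. The difference was 4.47 within IR and 0.46 within CR, and these differed (adjusted p = 0.00243, limma). SLC2A1, the glucose transporter GLUT1, had 55.4 to 96.4 CPM in resistant Huh7 and 88.1 to 162 CPM in resistant Hep3B cells with 1 Hep3B-IR library among the Huh7 libraries, and was higher in Hep3B (-0.93 ± 0.22 (SE, adjusted p = 0.0025, limma)), with a change from the parental 0.04 that was not called (adjusted p = 0.0715, limma). LOX (3.38) was higher in Huh7, and CA9 (-2.36), which marks hypoxia, was under 0.5 CPM in every resistant Huh7 library and at 1.69 to 9.95 CPM in resistant Hep3B cells. It was called within IR (-3.23) and stood at -1.48 within CR.

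Among the 1254 gained differences, 712 were higher in Huh7 and 542 in Hep3B. The change with resistance was called in Huh7 alone for 668, in Hep3B alone for 273 and in both for 186. The 5 highest were COL4A2, CDC42EP3, IGFBP5, PODXL and NAV1. COL4A2 (chromosome 13, 110958159 to 111165556, GRCh37), which pairs head to head with COL4A1 on chromosome 13, had 139 and 132 CPM in Huh7-CR, 163 and 292 CPM in Huh7-IR, 0.596 and 0.628 CPM in Hep3B-CR and 1.73 and 1.01 CPM in Hep3B-IR libraries, after 0.698 and 0.201 CPM in parental Huh7 and 0.135 and 0.281 CPM in parental Hep3B cells. The lines did not overlap, and the difference was 6.48 ± 0.205 (SE, adjusted p = 6.12e-11, limma) against 0.24. CDC42EP3, an effector of the GTPase CDC42, had 154 to 169 CPM in resistant Huh7 and 0.256 to 3.83 CPM in resistant Hep3B cells, after under 1 CPM in every parental library (6.01 ± 0.133 (SE, adjusted p = 6.51e-12, limma)). IGFBP5, another IGF-binding protein, had 31 to 94.9 CPM in resistant Huh7 and 0 to 0.019 CPM in resistant Hep3B cells. PODXL, the sialomucin podocalyxin, differed by 5.21 and NAV1, a microtubule-binding protein, by 4.97.

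The 5 lowest were MYO1D, SCEL, LONRF2, FAM169A and KLHL4. MYO1D (chromosome 17, 30819540 to 31204195, GRCh37), an unconventional myosin, had 0.85 and 0.707 CPM in Huh7-CR, 1.23 and 0.493 CPM in Huh7-IR, 151 and 201 CPM in Hep3B-CR and 151 and 169 CPM in Hep3B-IR libraries, after 47.4 and 42.5 CPM in parental Huh7 and 66.9 and 53.2 CPM in parental Hep3B cells. Huh7 lost it and Hep3B gained it, and the difference was -6.54 ± 0.174 (SE, adjusted p = 1.69e-11, limma) against -0.40. FAM169A was lost in Huh7 (-4.54). SCEL, a precursor of the cornified envelope, rose in Hep3B from under 0.2 CPM to 18.5 to 68.6 CPM and stayed under 0.1 CPM in resistant Huh7. LONRF2 (-4.73) and KLHL4 (-4.39) rose in Hep3B as well, by 6.35 and 3.93.

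Among the 248 turned differences, 140 became higher in Huh7 and 108 in Hep3B. The 6 with the largest values in both states were GRIK2, UNC13D, ADAM19, EVA1A, GPC1 and SLCO4C1. ADAM19 (chromosome 5, 156822542 to 157002783, GRCh37), a membrane metalloprotease, went from 0.0873 and 0 CPM in parental Huh7 and 25.9 and 19 CPM in parental Hep3B cells to 53.1 and 39.3 CPM in Huh7-CR, 16.9 and 9.63 CPM in Huh7-IR, 18.5 and 12.1 CPM in Hep3B-CR and 1.18 and 0.355 CPM in Hep3B-IR libraries. The Huh7 libraries exceeded those of Hep3B within each regimen and overlapped across regimens (-4.48 before and 2.28 ± 0.217 (SE, adjusted p = 1.54e-06, limma) after). GPC1 (chromosome 2, 241375080 to 241407493, GRCh37), a heparan sulfate proteoglycan, rose in Huh7 from 0.931 and 0.335 CPM to 69.6 to 83.6 CPM, against 12.3 to 19.9 CPM in Hep3B cells, and the difference went from -3.03 to 2.21. GRIK2 (-3.48 to 2.97), UNC13D (-2.75 to 2.86) and EVA1A (-2.21 to 3.98) turned the same way. SLCO4C1, an organic anion transporter, turned toward Hep3B (2.13 to -2.32). The fetal liver genes AFP and IGF2 were also among the turned differences. AFP (chromosome 4, 74296855 to 74321891, GRCh37), the tumor marker alpha-fetoprotein, fell in Huh7 from 3549 and 6269 CPM to 2.79 to 20.1 CPM and in Hep3B from 268 and 116 CPM to 3.73 to 103 CPM. Its line difference went from 4.73 to -1.09 ± 0.384 (SE, adjusted p = 0.0242, limma), and the resistant call was lost on leaving out Hep3B-CR replicate 1 (-0.99), Hep3B-IR replicate 2 (-0.61), Huh7-CR replicate 1 (-0.90) or Huh7-IR replicate 2 (-1.06), without the filter on low genes (-1.09) and with 2 groups by line (-1.09). IGF2 went from -2.49 to 1.69, and its annotation overlaps that of a readthrough with INS.

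The listed Sorafenib targets and receptor kinases were mostly higher in Hep3B. Of 25 members tested, 2 were higher in resistant Huh7 and 14 in resistant Hep3B cells, 9 were not called, and the median log2 difference was -0.73, beside 8 and 6 members called in parental cells. The change was called for 12 members, 10 of them toward Hep3B, beside 29.4% and 13.1% of all tested genes. FGFR2, a receptor for fibroblast growth factors, had 0.0773 and 0 CPM in Huh7-CR, 0.0166 and 0 CPM in Huh7-IR, 25.4 and 37 CPM in Hep3B-CR and 91.8 and 114 CPM in Hep3B-IR libraries. It fell from 8.13 and 6.88 CPM to under 0.1 CPM in Huh7, and the difference was -5.81 ± 0.143 (SE, adjusted p = 9.83e-12, limma) against -3.16. FGFR3 differed by -3.14, and MERTK, a relative of AXL, by -2.89 after 1.20 in parental cells, so AXL and MERTK differed in opposite directions in resistant cells. BRAF, a direct Sorafenib target, was higher in Huh7 (0.70). EGFR (0.43) and MET (-0.42) were not called in the mean, and EGFR was called within IR (0.73) and MET within CR (-0.91).

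In the mean of IR and CR cells, interferon and antigen presentation genes were mostly higher in Huh7. Of 29 members tested, 16 were higher in resistant Huh7 and 6 in resistant Hep3B cells, and 7 were not called. The median log2 difference was 0.74, and in parental cells 2 members were higher in Huh7 and 7 in Hep3B. The change was called toward Huh7 for 11 and toward Hep3B for 2, beside 16.3% and 13.1% of all tested genes. The line difference was called apart between regimens for 12 of the 29 members, beside 25.5% of all tested genes. OAS2, an antiviral enzyme, had 10.9 to 15.5 CPM in resistant Huh7 and 0 to 0.106 CPM in resistant Hep3B cells (3.67 ± 0.104 (SE, adjusted p = 2.46e-11, limma), parental 0.44). NLRC5, a regulator of class I genes, differed by 1.73, and IFIT3 by 1.62, made of 3.10 in IR and 0.14 in CR cells. B2M, the light chain of class I molecules, had 636 to 763 CPM in resistant Huh7 and 316 to 424 CPM in resistant Hep3B cells (0.95). The heavy chain HLA-C (-5.04) and the antiviral IFITM3 (-3.45) stayed higher in Hep3B. HLA genes are highly polymorphic and alike, and with unique hits their counts depend on the alleles of a line.

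Several genes tied to cell death and growth arrest are given singly, with no count over a list. PMAIP1, which encodes the death protein NOXA, had 40.9 to 103 CPM in resistant Huh7 and 0.0426 to 1.36 CPM in resistant Hep3B cells (5.35 ± 0.209 (SE, adjusted p = 3.97e-10, limma)). BTG2, which slows proliferation (2.01), and the death receptor FAS (1.50) were also higher in Huh7. CDKN1A, the cyclin-dependent kinase inhibitor p21, had 40.4 and 54.9 CPM in Huh7-CR, 45.7 and 43.6 CPM in Huh7-IR, 225 and 138 CPM in Hep3B-CR and 299 and 198 CPM in Hep3B-IR libraries. Its lines did not overlap, and it was higher in Hep3B (-2.15 ± 0.48 (SE, adjusted p = 0.00172, limma)). GDF15 (-3.46) and SESN2 (-1.42), both induced by cell stress, were higher in Hep3B too.

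Of 32 cell cycle genes, 3 were higher in Huh7 and 14 in Hep3B, beside 22.8% and 23.8% of all tested genes, and 15 were not called. The summed level of the 32 was 1749 to 3717 CPM in resistant Huh7 and 3159 to 4424 CPM in resistant Hep3B cells, against 6149 to 7222 CPM over the parental libraries. The order of the lines depended on the regimen. Huh7-IR libraries, with 1749 and 2816 CPM, lay below Hep3B-IR libraries, with 4424 and 4057 CPM, while Huh7-CR libraries, with 3429 and 3717 CPM, lay above Hep3B-CR libraries, with 3159 and 3165 CPM, and the line difference was called apart between regimens for 17 of the 32 genes, beside 25.5% of all genes tested. TOP2A, needed for chromosome segregation, had 88.7 to 289 CPM in resistant Huh7 and 326 to 736 CPM in resistant Hep3B cells (-1.24, beside -1.25 in parental cells), and the replication helicase subunit MCM3 differed by -1.15. Both were called within IR (-2.13 and -1.90) and not within CR (-0.35 and -0.40). D-type cyclins were divided, with CCND1 higher in Huh7 (1.83) and CCND2, off in resistant Huh7, at 9.25 to 19.2 CPM in Hep3B cells. E2F1 (1.31) was higher in Huh7 and CCNE2 (-1.97) in Hep3B. Growth rates were not measured, and their part in these values was not tested.

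The line difference depended on the regimen for 3828 genes (25.5%), for which the difference within IR and that within CR were called apart, and 255 genes were called in both with opposite signs. ALB, albumin, was among the first, with 1147 and 2305 CPM in Huh7-CR, 60.6 and 261 CPM in Huh7-IR, 655 and 753 CPM in Hep3B-CR and 1682 and 5526 CPM in Hep3B-IR libraries. Hep3B exceeded Huh7 within IR (-4.59 ± 0.608 (SE, adjusted p = 4.25e-05, limma)), where no library overlapped, while within CR the Huh7 libraries were the higher ones and were not called (1.21 ± 0.608 (SE, adjusted p = 0.114, limma)). GPC3, a fetal liver glypican, was called within IR only, with -4.83 in IR and 0.43 in CR cells, and AFP was called in both with opposite signs, -3.75 and 1.56. ITGA3, an integrin chain for laminin that had 0.616 to 1.29 CPM in the parental libraries, had 101 and 82.3 CPM in Huh7-CR, 702 and 611 CPM in Huh7-IR, 486 and 521 CPM in Hep3B-CR and 190 and 111 CPM in Hep3B-IR libraries. Its mean difference of -0.14 hid 2.17 in IR and -2.45 in CR cells. Huh7-IR cells had the lowest plasma protein sums, 218.4 and 887.4 CPM, and Huh7-CR cells 1725 and 3603 CPM, whereas in Hep3B the IR libraries, with 4354 and 12350 CPM, exceeded the CR libraries, with 2777 and 4275 CPM.

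Line differences also followed chromosomes. The median resistant difference over the 267 tested genes of chromosome 13 was 0.69, with 52.4% of them higher in Huh7 and 50.2% kept, and RB1, COL4A1 and COL4A2 lie there. It was -0.50 on chromosome 4 (566 genes, 46.1% higher in Hep3B), -0.47 on chromosome 15 and -0.39 on chromosome 14. These chromosomes had the same sign in parental cells, at 0.24, -0.29, -0.35 and -0.27, and in DMSO cells, at 0.30, -0.03, -0.38 and -0.31. Chromosome 3 went from 0.02 to 0.34 and chromosome 10 from -0.03 to 0.25, and chromosomes 8 (0.09 to -0.21) and 22 (0.17 to -0.16) changed sign. Over the 23 chromosomes the parental and resistant medians had a Pearson correlation of 0.693, and the DMSO and resistant medians one of 0.574, as descriptions. DNA copy number was not measured, and its part in these medians was not tested.

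**Figure D4:**
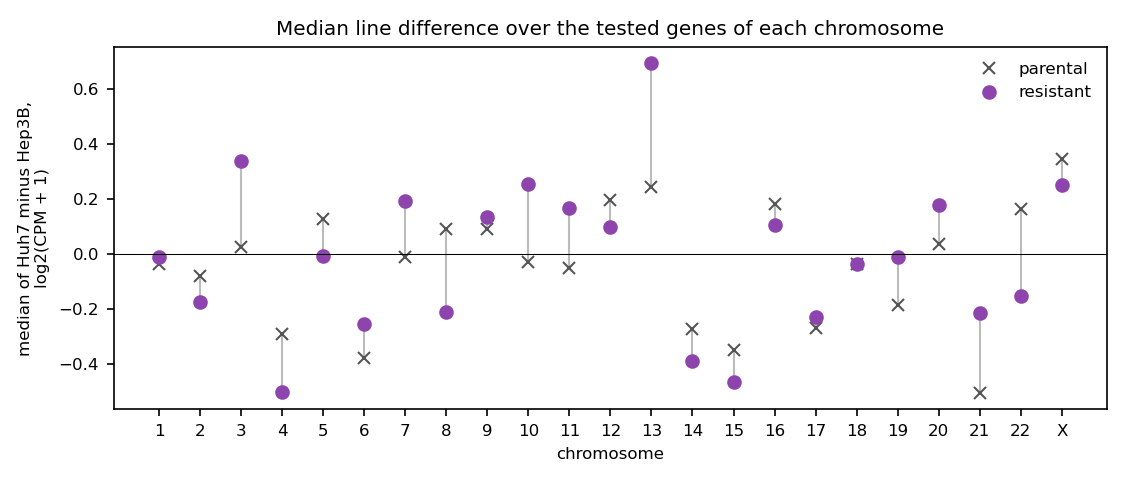
Median Huh7 minus Hep3B difference, log2(CPM + 1), over the tested genes of each chromosome (x axis), in parental (crosses) and resistant cells (dots), with a line joining the 2. Chromosome 13 is highest and chromosome 4 lowest in resistant cells.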

How the data were processed

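RNA from 16 libraries of Huh7 and Hep3B cells was used, 8 of them resistant. According to the study's methods, the authors mapped reads to hg19 with STAR, kept reads with a unique hit, and counted them over RefSeq exons with QuasR; whether strand was used in counting is not given in the sources used here. The deposited table holds CPM for 26258 genes. In every library 100% of the values came out as whole reads, within 0.05 reads, and 46613302 to 76407060 reads were recovered per resistant library. The floor of 3 reads covers counting error only, and the confidence intervals rest on the spread between libraries.

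The 15019 genes that reached 1 CPM in 2 or more libraries were tested with limma (version 3.58.1, R 4.3.3) on log2(CPM + 1), with all 16 libraries in 8 groups sharing 1 estimate of the spread and p-values adjusted by Benjamini-Hochberg over all genes tested. Calls needed an adjusted p under 0.05 and a log2 difference of at least 0.58. The resistant contrast is the mean of IR and CR. On the recovered reads, edgeR (4.0.16) called 7605 genes and DESeq2 (1.42.0) 7675 in that contrast. On simulated reads, limma called 73 of 100 genes changed 2-fold, 97 of 100 changed 4-fold and 9 of 14819 unchanged genes. Only resistant Huh7 libraries were changed there, genes with a low mean were left unchanged, and every other gene had a single mean over all libraries. In the data 46.6% of genes were called and many were near 0 in one line, so these rates may not hold for them.

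The gene lists and the members named were chosen with earlier results of these data known. Named by rule were the 6 highest and 6 lowest kept, 5 and 5 like-level, 5 and 5 gained and 6 turned genes, from each list the 3 highest and 3 lowest called and the 2 with the most reads, and a fixed set including HIF1A, 157 genes in all. The kept and gained genes so named also had to be called within IR and within CR. For the kept genes, the resistant libraries of the lines also had to be free of overlap. The like-level genes needed a mean of at least 1 CPM in both resistant lines. Other genes named were chosen after their values were seen. A few genes and 1 list are not reported here. Gene positions (24448 genes) are from GRCh37, promoters from RefSeq on GRCh38.p14. Alternatives changed scaling, pseudocount, filter, tool, threshold, bound, libraries and untreated reference.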

Additional observations from a re-analysis of the deposited data

Results flagged for a closer look

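Of the 157 genes named by rule, 43 of those reported had a line difference within IR that was called apart from the line difference within CR by a limma interaction test, adjusted over the 15019 genes, of which 25.5% were called. Values are the IR minus the CR line difference on the log2 scale, so that a negative value means that Hep3B was relatively higher in IR cells. Among plasma protein and fetal liver genes these were ALB (-5.8), AFP (-5.32), AMBP (-3.03), SERPINA1 (-3.23), FGA (-3.74), FGB (-3.74), APOA2 (1.81), GPC3 (-5.27) and LIN28B (-0.845). They were, among liver factors and enzymes, HNF4A (-1.81), GATA6 (-1.23), UGT2B7 (-2.73) and SULT1E1 (-4.38). The matrix, mesenchymal and surface genes were COL3A1 (-1.99), LUM (-2.36), ACTA2 (-1.67), CCN2 (-1.39), VCAN (-1.3), CD24 (-1.19), TM4SF1 (-3.11) and TMSB4X (-2.92). Among the genes whose line difference was gained or turned round there were ADAM19 (1.46), CDC42EP3 (1.56), EVA1A (3.13), FAM169A (-1.21), IGFBP5 (-1.16), NAV1 (2.06), SCEL (-1.36), SLCO4C1 (-1.13) and UNC13D (-3.22). Among receptors, interferon and stress genes the values were for AHNAK2 (4.01), FGFR2 (-1.75), MET (0.991), IFIT3 (2.96), NLRC5 (1.44), PMAIP1 (1.54), SESN2 (1.4) and TNFRSF10B (1.33). Of the HOX, cancer-testis and cell cycle genes there were HOXC10 (-1.9), MAGEA3 (-3.04), MAGEA6 (-3.72), MCM3 (-1.5) and TOP2A (-1.79). For each gene the CR value rests on 4 libraries and the IR value on 4, and the 2 Huh7-IR libraries differed from each other more than those of the other resistant groups. Groups of 2 libraries are too small for a test of a single outlying library.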

How the results depend on the processing

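With a log2 difference of at least 1 in place of 0.58, which calls fewer genes by construction, 3917 genes differed between the resistant lines, 4811 within IR, 4013 within CR and 3751 in parental cells, the change was called for 2644, and 1982 were kept, 570 gained and 71 turned round. With a bound of 0.58 in place of 1, narrower by construction, 326 genes were at like levels and 498 gained. Gained differences numbered 778 by edgeR, 794 without Hep3B-parental replicate 1 and 777 without Huh7-parental replicate 2, against 1254, and turned differences 157 with a pseudocount of 4 CPM, against 248; the cause was not tested. No other alternative moved a count by more than 1.5 times.

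Leaving out 1 library at a time gave 6866 to 7071 resistant, 6780 to 7774 IR, 5759 to 6105 CR and 5499 to 5648 parental calls, and 3150 to 4956 called changes. It gave 3401 to 3947 kept, 644 to 892 like-level, 777 to 1495 gained and 177 to 292 turned genes, and 126 to 129 of the 130 called among the 157 named genes. Of 3133 values of named genes under 20 alternatives, 49 lost and 4 gained the call and 0 changed sign, and 114 of the 130 were called under every one. With the 8 resistant libraries in 2 groups by line, so that the spread holds the difference between IR and CR, ADAM19, AFP, ALB, AXL, C3, CCN2, FGA, FGB, GPC3 and ONECUT2 were not called.

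Replicate numbers were shared between groups, and deviations of libraries with the same number correlated from -0.22 to 0.439 over 28 pairs of groups, 13 of them above 0.1. Over the 6 pairs of the 4 resistant groups the range was -0.0433 to 0.439, with 4 pairs above 0.1. Whether the number pairs the libraries was not tested, and the main fit did not use it. With the number as a replicate block 7008 resistant, 7744 IR, 6767 CR and 6401 parental differences and 4470 changes were called, and 3841 kept, 861 like, 1262 gained and 255 turned, with 130 named genes called. With 2 libraries a group, the like-level class depends on the width of the interval, and genes near 1 CPM are limited by depth and by the pseudocount.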
